A study of Mus musculus with 6 samples.

Results

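Osteoblasts and adipocytes arise from shared mesenchymal precursors, and 10 genes of the adipocyte program, the lineage alternative to bone, were examined here in a pre-osteoblast line treated with polymer microparticles (MPs). The 10 genes were chosen by name, as factors and lipid genes of adipogenesis: the transcription factors Pparg, Cebpa, Cebpb, Cebpd, Klf15, Zfp423 and Ebf1, and the lipid genes Fabp4, Lpl and Plin2. All 10 had a row among the 26187 genes measured in each of 6 RNA-Seq libraries. The libraries came from MC3T3-E1 cells, an established line of pre-osteoblasts from mouse calvaria. The PAKG group (3 libraries) received PAKG–8diol–PEG(S) MPs, the smaller form of particles made from a polymer of alpha-ketoglutarate, at 30 μg/mL for 2 days, whereas the OC group (3 libraries) received no MPs. Both groups were kept in osteoconductive (OC) medium with ascorbic acid and β-glycerophosphate, for which the labels and the methods give different concentrations, and neither names an adipogenic inducer such as dexamethasone, insulin or a PPARγ ligand. All samples are of 1 cell line, and the methods mention wells in triplicate for cell experiments but do not state whether the 3 RNA replicates were such wells, so each p-value reflects no more than the variation among these samples, which may be technical.

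In fat cell formation, C/EBPβ (Cebpb) and C/EBPδ (Cebpd) are the early transcription factors, and they switch on C/EBPα (Cebpa) and the nuclear receptor PPARγ (Pparg), which then maintain each other and activate the lipid genes of the mature cell. Zfp423 and Ebf1 mark and commit preadipocytes upstream of PPARγ, and Klf15 acts with the C/EBP proteins in late differentiation. Fabp4 carries fatty acids in the cytosol, Lpl releases them from lipoproteins outside the cell, and Plin2 coats lipid droplets in many cell types. RUNX2 and SP7 drive the same precursors towards bone.

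The 250 bases before the start of a gene are shown for the C/EBP factor that differed between the groups, for a C/EBP factor that did not pass the test, and for PPARγ, the textbook target of both. They are RefSeq sequences on GRCm38.p6, which matched 7 of the 10 genes, written 5′ to 3′ on the strand of the gene. Capitals mark matches, on either strand, to any of the 7 motifs searched. For C/EBP this was TTGCNNAA, a pattern that is not a palindrome. The nuclear receptor motifs were the half-site AGGTCA and its direct repeat with a spacer of 1 base that PPARγ and RXR bind. The others were the EBF palindrome CCCNNGGG, the Sp/KLF box GGGCGG, the glucocorticoid receptor half-site AGAACA and the TATA box TATAAA.
Cebpa, chr7:35119043-35119292, + strand: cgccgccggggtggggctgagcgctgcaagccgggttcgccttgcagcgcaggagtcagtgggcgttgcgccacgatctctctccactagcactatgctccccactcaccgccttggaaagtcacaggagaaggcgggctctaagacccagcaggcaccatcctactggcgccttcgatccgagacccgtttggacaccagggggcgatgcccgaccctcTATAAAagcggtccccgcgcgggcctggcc
Cebpb, chr2:167688665-167688914, + strand: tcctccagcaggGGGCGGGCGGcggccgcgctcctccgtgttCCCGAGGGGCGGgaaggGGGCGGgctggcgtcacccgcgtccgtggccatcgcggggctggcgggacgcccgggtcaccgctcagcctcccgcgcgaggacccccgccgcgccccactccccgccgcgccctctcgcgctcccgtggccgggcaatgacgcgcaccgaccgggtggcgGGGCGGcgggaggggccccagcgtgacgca
Pparg, chr6:115421816-115422065, + strand: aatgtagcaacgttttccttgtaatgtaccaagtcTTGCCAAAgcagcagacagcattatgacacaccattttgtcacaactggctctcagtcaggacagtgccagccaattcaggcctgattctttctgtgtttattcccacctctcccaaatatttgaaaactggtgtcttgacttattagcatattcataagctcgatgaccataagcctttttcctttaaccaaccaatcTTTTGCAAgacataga
The Cebpa window held 1 TATA box and no match to the other 6 motifs. In the Cebpb window, 81.6% G and C, there were 5 Sp/KLF boxes, which overlap in places, and 1 EBF palindrome. Pparg has 3 RefSeq starts. The window shown, that of the most downstream one, was the A and T rich one at 40.8% G and C. It held 2 matches to the C/EBP motif, while the other 2 windows held none. A match to the C/EBP motif was found in 9.56% of the 32851 windows of that length. A TATA box was found in 12.4% and an Sp/KLF box in 32.7%. The share was 11.8% for an EBF palindrome, 14.0% for a nuclear receptor half-site, 16.1% for a glucocorticoid half-site and 0.0335% for the direct repeat. Among the windows of the other members, the C/EBP motif was matched once, before 1 of the 2 Zfp423 starts. A match describes the letters only.

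Levels are FPKM, fragments per length of transcript and depth of the library, as the authors deposited them. Of the 10 genes, 6 reached 0.5 FPKM on average, namely Cebpa, Cebpb, Cebpd, Plin2, Zfp423 and Ebf1, and were tested between the groups together with all 12590 genes at that level. The test was limma on log2(FPKM + 0.1), a scale that understates the fold change of low genes, and a gene was called at a Benjamini-Hochberg adjusted p under 0.05. Pparg, Fabp4, Lpl and Klf15 were under the filter and are described without a test. Of the 6 tested genes, 1, Cebpa, was called higher with PAKG MPs, beside 5.97% of all tested genes, and 0 were called lower, beside 8.73% (no further member had an unadjusted p under 0.05). With the study's second threshold, a fold change of at least 2, 0 of 6 were called higher, beside 0.866% of all tested genes. The median log2 fold change of the 6 was 0.03, and that of all tested genes was -0.03. The shares of 5.97% higher and 8.73% lower are also the background for the counts of the other lists. One library stood apart for these genes: OC replicate 3 held low levels of transcripts of mature adipocytes, and values that rest on it are given with and without it. PAKG replicate 2 was the only library with Fabp2 and Fabp6. The plot of the 10 genes by library shows the values.

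**Figure D1:**
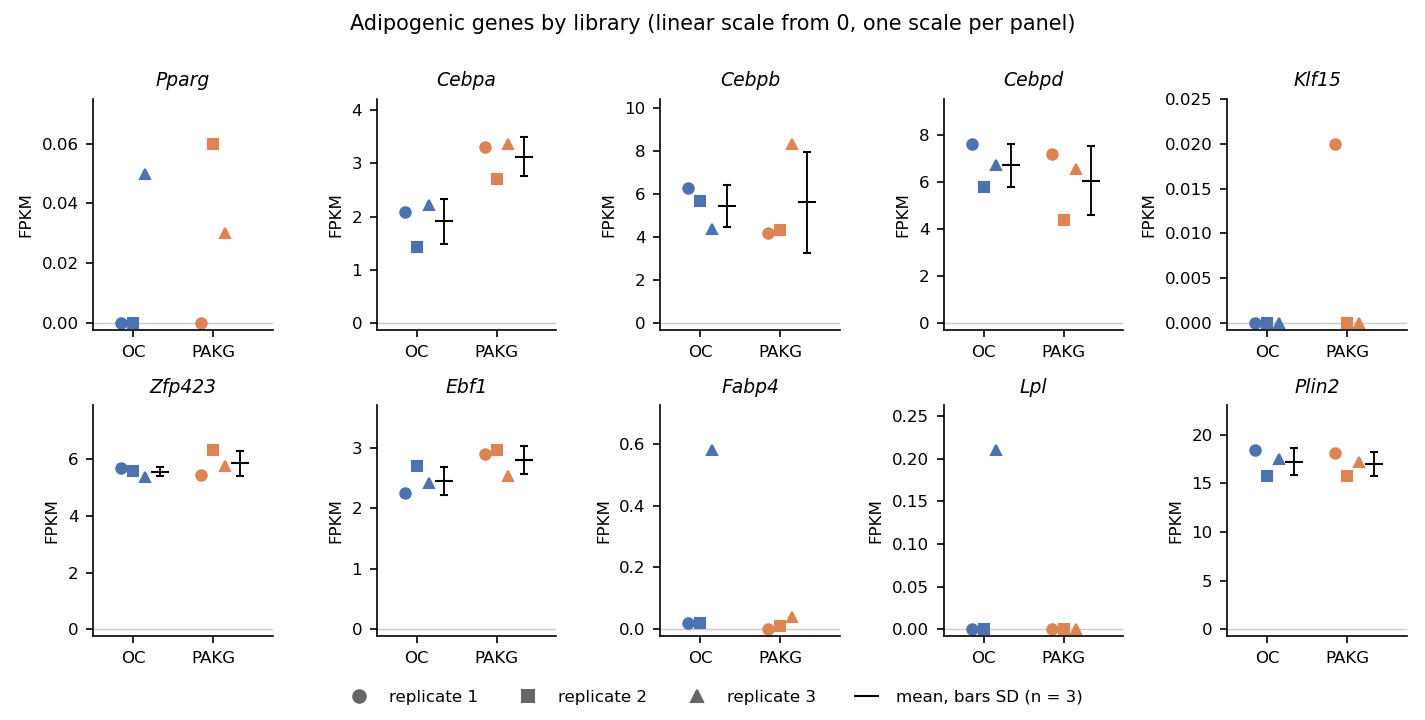
FPKM of the 10 adipogenic genes in each library, on a linear axis from 0 that differs between panels, with a marker shape per replicate number and the mean ± SD (n = 3) beside the points of the 6 tested genes. The 3 PAKG values of Cebpa (2.70 to 3.37 FPKM) lie above the 3 OC values (1.43 to 2.21 FPKM), and Fabp4 and Lpl stand out in OC replicate 3 alone.

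Cebpa, the C/EBP factor of terminal fat cell differentiation (ENSMUSG00000034957, chromosome 7, 35119293 to 35121928 on GRCm38, plus strand), was at 2.09, 1.43 and 2.21 FPKM in OC replicates 1, 2 and 3 and at 3.30, 2.70 and 3.37 FPKM in the PAKG replicates. The groups did not overlap, and replicate 2 was the lowest library of each. The same held, PAKG above OC without overlap, for 13.7% of all tested genes. The mean rose from 1.91 ± 0.420 to 3.12 ± 0.368 FPKM (SD, n = 3), which gives a log2 fold change of 0.70 (95% interval 0.29 to 1.11, limma adjusted p = 0.0374), or 1.62-fold. Within pairs of the same replicate number, a pairing that no source states, the PAKG level was 1.58, 1.89 and 1.52 times the OC level. With the replicate number as a block, the fold change kept its value with a standard error of 0.09 in place of 0.18 (adjusted p = 0.00448). The call rested on 5 of the 6 libraries: leaving out OC replicate 1, 2 or 3 ended it (adjusted p = 0.0685, 0.0523 and 0.0584), as did leaving out PAKG replicate 1 or 3 (0.111 and 0.131) or keeping the low genes in the fit (0.0949), while the log2 fold change stayed between 0.51 and 0.81. Without PAKG replicate 2 the call was kept (0.0275).

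An exon of the predicted gene Gm45091 overlaps Cebpa on the opposite strand. The library kit marks the strand, but whether the counting used it is not given in the sources used here, and without strand the reads of such a pair cannot be told apart. Gm45091 was at 0.46, 0.31 and 0.41 FPKM in OC and at 0.41, 0.71 and 0.79 FPKM in PAKG, below Cebpa in every library, with a log2 fold change of 0.55 that did not pass the test (adjusted p = 0.248). Over the 6 libraries, the genes whose log2 levels were most like those of Cebpa were Tmem175 (Pearson's r = 0.997), Slc26a11 (r = 0.993) and Gstz1 (r = 0.993). These correlations describe 6 points that share the groups and the libraries, and 155 of 12584 genes (1.23%) had r above 0.95. The fold change of Cebpa was the largest of the 4, with log2 values of 0.35 for Tmem175, 0.21 for Slc26a11 and 0.14 for Gstz1, none of which was called.

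Cebpb, the early C/EBP factor (ENSMUSG00000056501, chromosome 2, 167688915 to 167690418, plus strand), was at 6.29, 5.65 and 4.37 FPKM in OC and at 4.20, 4.30 and 8.33 FPKM in PAKG. The lowest and the highest library were both PAKG, replicates 1 and 3, so the PAKG values enclosed all OC values. The means were 5.44 ± 0.978 and 5.61 ± 2.36 FPKM, and the log2 fold change was -0.01 with a wide 95% interval of -0.63 to 0.61 (adjusted p = 0.984). The sign of this difference changed with the scaling and with the library left out. Within replicate pairs the ratio of PAKG to OC was 0.668, 0.761 and 1.91. The spread of Cebpb in PAKG was the widest among the tested members.

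Cebpd, its early partner (ENSMUSG00000071637, chromosome 16, 15887286 to 15891031, plus strand), was at 7.61, 5.78 and 6.69 FPKM in OC and at 7.17, 4.38 and 6.55 FPKM in PAKG. Replicate 2 was again the lowest in both groups, and the groups overlapped. The log2 fold change was -0.17 (95% interval -0.61 to 0.27, adjusted p = 0.611), and without PAKG replicate 2 it was 0.04. Both genes share exon sequence with a gene on the opposite strand, Cebpb with Tmem189 and Cebpd with Spidr. Tmem189 was at 14.90 to 17.01 FPKM in OC and 16.03 to 19.33 FPKM in PAKG and was not called (adjusted p = 0.327). Spidr fell from 7.55 ± 0.157 to 5.39 ± 0.143 FPKM (adjusted p = 0.00405, log2 fold change -0.48), and the part of either neighbour in the C/EBP values was not tested.

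Pparg, the nuclear receptor without which fat cells do not form (ENSMUSG00000000440, chromosome 6, 115360951 to 115490399, plus strand), was listed at 0 in OC replicates 1 and 2 and at 0.05 FPKM in OC replicate 3. In PAKG it was listed at 0 in replicate 1, at 0.06 FPKM in replicate 2 and at 0.03 FPKM in replicate 3. From the estimated depth and the longest coding transcript, these values correspond to about 3.9 fragments in OC replicate 3 and to about 4.4 and 2.1 in PAKG replicates 2 and 3. Both groups thus held libraries at 0 and libraries with a few fragments, and no difference was detectable at this depth. The tables carry 1 transcript for Pparg, so its 3 starts could not be told apart. In RNA from a culture, fewer cells that express a gene and less RNA per cell cannot be told apart.

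Klf15, a Krüppel-like factor of late fat cell differentiation (ENSMUSG00000030087, chromosome 6, 90462576 to 90475238, plus strand), was listed at 0 in 5 of 6 libraries and at 0.02 FPKM, about 2.1 fragments, in PAKG replicate 1. Pparg and Klf15 were the 2 transcription factors among the members that were near 0 in every library.

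The commitment factors were present at steady levels. Zfp423, a zinc finger protein of preadipocytes (ENSMUSG00000045333, chromosome 8, 87661810 to 87959595, minus strand), was at 5.70, 5.59 and 5.38 FPKM in OC and at 5.45, 6.32 and 5.77 FPKM in PAKG. Its groups overlapped, and the log2 fold change was 0.07 (95% interval -0.12 to 0.26, adjusted p = 0.632). Ebf1, an early B cell factor that also acts in adipogenesis (ENSMUSG00000057098, chromosome 11, 44617317 to 45008091, plus strand), was at 2.25, 2.70 and 2.41 FPKM in OC and at 2.90, 2.96 and 2.53 FPKM in PAKG. Ebf1 was higher in PAKG within each replicate pair, by 1.29, 1.10 and 1.05 times, but the groups overlapped and the log2 fold change of 0.18 (95% interval -0.08 to 0.44) did not pass the test (adjusted p = 0.330). For both genes the intervals exclude a change of 2-fold in either direction.

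Of the lipid genes, only Plin2 was expressed above the filter. Plin2 (ENSMUSG00000028494, chromosome 4, 86648386 to 86670060, minus strand) was the highest of the 10 genes in every library, at 18.41, 15.74 and 17.51 FPKM in OC and at 18.13, 15.71 and 17.18 FPKM in PAKG. Libraries of the same replicate number differed by less than libraries of the same group, with ratios of 0.985, 0.998 and 0.981. The means of 17.2 ± 1.36 and 17.0 ± 1.22 FPKM gave a log2 fold change of -0.02 (95% interval -0.22 to 0.19, adjusted p = 0.926), and the sign turned to 0.03 when each library was rescaled to a common total.

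Fabp4, the fatty acid binding protein of adipocytes (ENSMUSG00000062515, chromosome 3, 10204088 to 10208576, minus strand), was at 0.02, 0.02 and 0.58 FPKM in OC and at 0, 0.01 and 0.04 FPKM in PAKG. Lpl, lipoprotein lipase (ENSMUSG00000015568, chromosome 8, 68880491 to 68907448, plus strand), was at 0.21 FPKM in OC replicate 3 and listed at 0 in the other 5 libraries. In fragments, OC replicate 3 held about 19.1 of Fabp4 and about 31.8 of Lpl, and no other library held more than about 1.2 of Fabp4. Both genes thus stood out in 1 OC library, and without it the highest Fabp4 value was the 0.04 FPKM of PAKG replicate 3. Fitted without the filter, the log2 fold change of Fabp4 was -0.89 (adjusted p = 0.626), that of Lpl was -0.54 (0.629), that of Pparg was 0.16 (0.774) and that of Klf15 was 0.09 (0.703). Without OC replicate 3, a fit added after seeing the data, Fabp4 was at -0.06 (adjusted p = 0.898), Pparg at 0.35 (0.564) and Klf15 at 0.09 (0.784), and Lpl, listed at 0 in all libraries that remained, had no value.

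The markers of mature adipocytes moved with Fabp4 and Lpl in that library. Of 21 marker genes, 18 had a row, and 11 of the 18 had their highest value in OC replicate 3. Of these, 7 were above 0 in that library only: Lep at 0.20, Retn at 0.08, Cfd at 0.37, Plin1 at 0.06, Cidec at 0.25, Lgals12 at 0.10 and Cd36 at 0.12 FPKM. Adipoq, which encodes adiponectin, was at 0, 0.04 and 0.36 FPKM in OC and at 0 in all 3 PAKG libraries. Over the 10 measured genes of the defining adipocyte list, the summed level was 2.67 FPKM in OC replicate 3, 1.04 and 1.02 FPKM in OC replicates 1 and 2, and 1.21 to 1.54 FPKM in PAKG. Most of the sum outside OC replicate 3 was Lipe, hormone-sensitive lipase, at 0.92 to 1.39 FPKM in all libraries. Apart from Lipe, the defining markers were thus at no more than 0.15 FPKM in the 3 PAKG libraries and in OC replicates 1 and 2, where Fabp4 and Lpl were too. Their part in the values of OC replicate 3 was not tested. In the heat map of these genes, OC replicate 3 is the bright column.

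**Figure D2:**
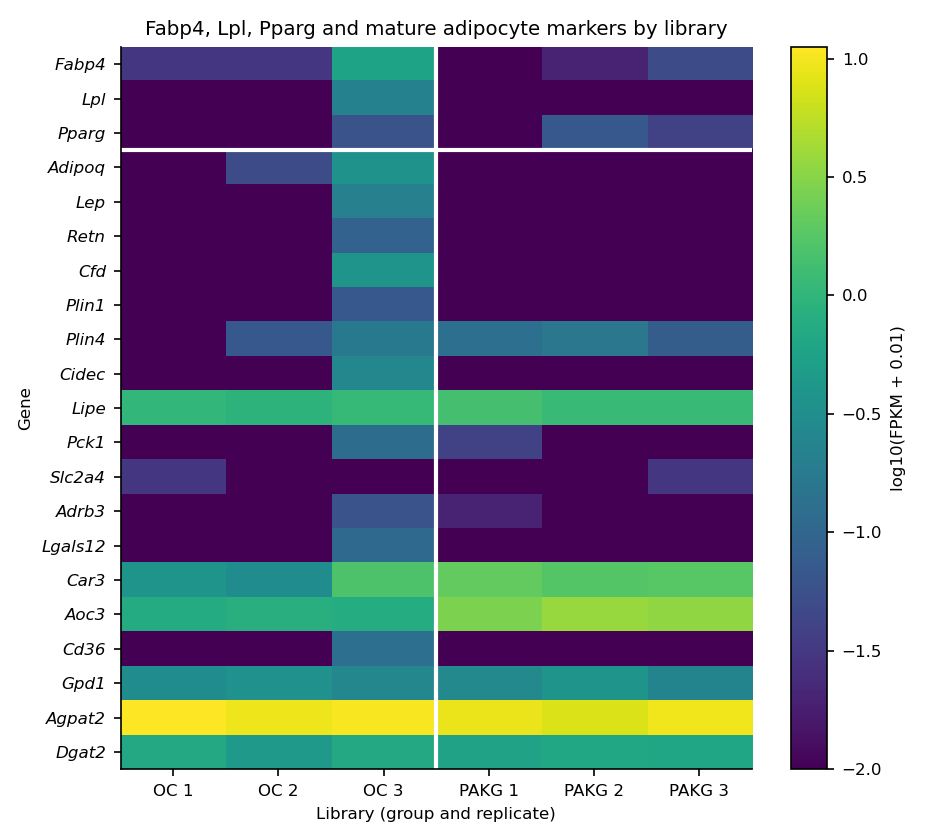
Levels of Fabp4, Lpl, Pparg (above the white line) and 18 mature adipocyte markers in the 6 libraries, as log10(FPKM + 0.01), with OC left and PAKG right of the vertical line. Adipoq, Lep, Retn, Cfd, Plin1 and Cidec are at 0.06 to 0.37 FPKM in OC replicate 3 and at 0 in all PAKG libraries, while Aoc3 is higher in all 3 PAKG libraries.

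Among these markers, 5 passed the filter, and Aoc3 was called. Aoc3, a copper amine oxidase of the surface of fat and smooth muscle cells, rose from 0.780 ± 0.0458 to 3.37 ± 0.505 FPKM, which is a log2 fold change of 1.97 (95% interval 1.65 to 2.29, adjusted p = 0.000327). Car3, carbonic anhydrase of fat and muscle, named after its values were seen, was at 0.37, 0.29 and 1.55 FPKM in OC and at 2.05, 1.70 and 1.80 FPKM in PAKG. It was not called with all libraries (adjusted p = 0.0828) but was without OC replicate 3 (log2 fold change 2.18, adjusted p = 0.00435) and with the replicate block (0.0433), under which Agpat2 was called lower as well and 3 of the 5 were called. The list's median log2 fold change was 0.25.

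The order of the levels of the 6 tested genes was nearly the same in both groups. In OC, Plin2 was followed by Cebpd (6.69 FPKM), Zfp423 (5.56), Cebpb (5.44), Ebf1 (2.45) and Cebpa (1.91), and then by Fabp4, Lpl, Pparg and Klf15 below 0.3 FPKM on average. Neighbours in the OC order did not overlap over the 3 libraries, except Zfp423 with Cebpb and the genes from Fabp4 down. In PAKG, Cebpa (3.12 FPKM) came before Ebf1 (2.80 FPKM), and these 2 overlapped, as did Cebpd, Zfp423 and Cebpb.

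To set the members beside the bone program, the level of Runx2 in each library was taken over that of each gene on the log2(FPKM + 0.1) scale. Runx2, the master factor of osteoblasts, was at 14.55, 16.74 and 15.60 FPKM in OC and at 25.81, 29.34 and 26.18 FPKM in PAKG (log2 fold change 0.79, adjusted p = 0.00122). Runx2 exceeded Pparg by 6.71 to 7.40 log2 units in OC and by 7.52 to 8.02 in PAKG, values that depend on the added 0.1 because Pparg was at or near 0. Against Cebpa the difference was 2.99 ± 0.41 log2 units in OC and 3.08 ± 0.27 in PAKG (SD, n = 3), so Cebpa and Runx2 kept nearly the same ratio. For Zfp423 it went from 1.47 ± 0.12 to 2.19 ± 0.03, for Ebf1 from 2.62 ± 0.03 to 3.23 ± 0.11, and for Plin2 from -0.14 ± 0.21 to 0.67 ± 0.20, without overlap in each case. Plin2 was thus above Runx2 in OC replicates 1 and 3 and below it in all PAKG libraries. Groups did not overlap, with PAKG higher, for 8 of the 10 genes and for 4 of the 6 tested ones, against 89.2% of all 12590 tested genes, so the lack of overlap is not particular to the adipogenic genes. For the untested genes Pparg, Fabp4, Lpl and Klf15, mostly at or near 0, the difference rests largely on Runx2 and the added 0.1. Runx2 itself rose, and the difference also grew for genes whose own log2 fold change was close to 0, such as Plin2 (-0.02) and Zfp423 (0.07). These differences are descriptions, with no test.

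**Figure D3:**
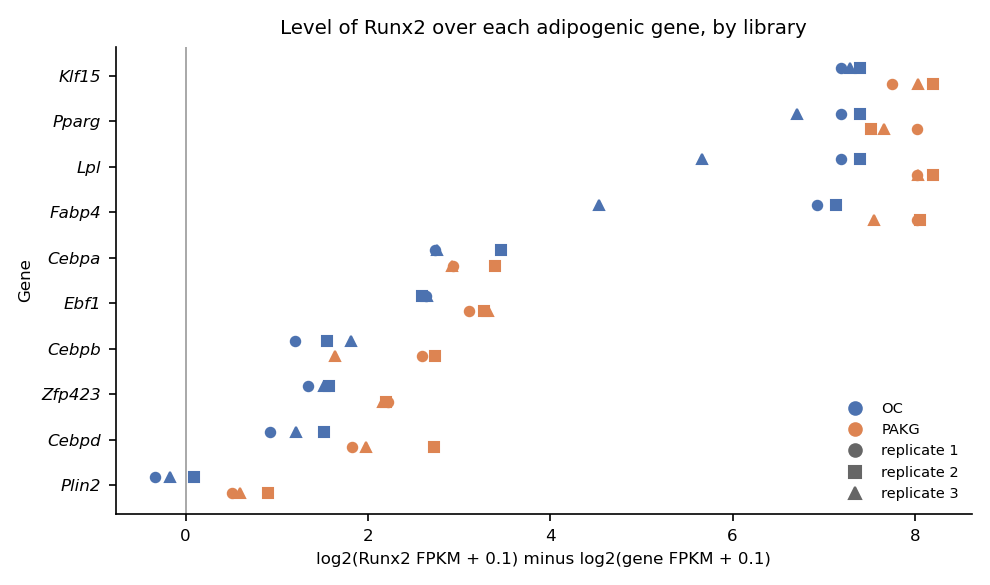
Log2 level of Runx2 minus that of each adipogenic gene (x axis, log2 units on FPKM + 0.1) in the OC and PAKG libraries, with a marker shape per replicate number. Values of PAKG lie to the right of all OC values for 8 genes, among them the untested genes Pparg, Fabp4, Lpl and Klf15, mostly at or near 0. The same holds for 89.2% of all tested genes, since Runx2 itself rose (log2 fold change 0.79). The groups overlap for Cebpa (2.74 to 3.46 in OC, 2.92 to 3.39 in PAKG) and Cebpb.

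Regulators that promote adipogenesis were counted from a list of 19 genes, 12 of which were tested. Klf4, a Krüppel-like factor that acts with KROX20 upstream of C/EBPβ, rose from 19.5 ± 0.505 to 28.2 ± 0.271 FPKM (adjusted p = 0.00160, log2 fold change 0.53). Egr2, which encodes KROX20 itself, fell from 2.86 ± 0.0586 to 1.68 ± 0.0173 FPKM (adjusted p = 0.00211, log2 fold change -0.73). The other 10 were not called, and the median was 0.07. With the replicate block, 6 of the 12 were called, 3 in each direction, the additions being Klf9 and Stat5a higher and Nr3c1 and Med1 lower, all within 0.35 log2 units of 0.

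Of 17 regulators that restrain adipogenesis, 15 were tested. In limma's test 4 were called higher, beside 5.97% of all tested genes. None was called lower, beside 8.73% (0 also at an unadjusted p under 0.05). These counts depend on how the genes were listed. Trib2, whose protein binds C/EBPα, and Trib3 were placed among the C/EBP targets instead. Both were called lower (log2 fold change -0.66 and -0.63, limma adjusted p = 0.000839 and 0.0472). The list was chosen with earlier results of these data known, and the study had reported Wnt10b as upregulated. Wnt10b, a Wnt ligand that holds precursors out of the fat lineage, was at 10.52, 9.33 and 8.93 FPKM in OC and at 22.11, 22.27 and 23.63 FPKM in PAKG, a log2 fold change of 1.23 (95% interval 1.05 to 1.42, adjusted p = 0.000285). Wnt6, another ligand with that activity, rose from 6.90 ± 0.867 to 13.7 ± 1.97 FPKM (adjusted p = 0.00337, log2 fold change 0.98). Klf2, a repressor of Pparg, rose from 6.39 ± 0.313 to 10.3 ± 1.47 FPKM (0.68, adjusted p = 0.00805), and Id3, an inhibitor of helix-loop-helix factors, rose from 69.2 ± 9.66 to 97.7 ± 13.1 FPKM (0.50, adjusted p = 0.0447). The call of Id3 ended when PAKG replicate 1 or 3 (adjusted p = 0.131 and 0.156) or OC replicate 2 or 3 (0.112 and 0.145) was left out, when low genes were kept (0.105) and in the fit that assumes no trend (0.0700). The list's median was 0.15. Cebpa, with its log2 fold change of 0.70, thus rose beside factors of both kinds. Wnt10b had a larger fold change than any tested adipogenic gene, with an interval that overlapped the upper end of that of Cebpa, as the plot of fold changes shows.

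**Figure D4:**
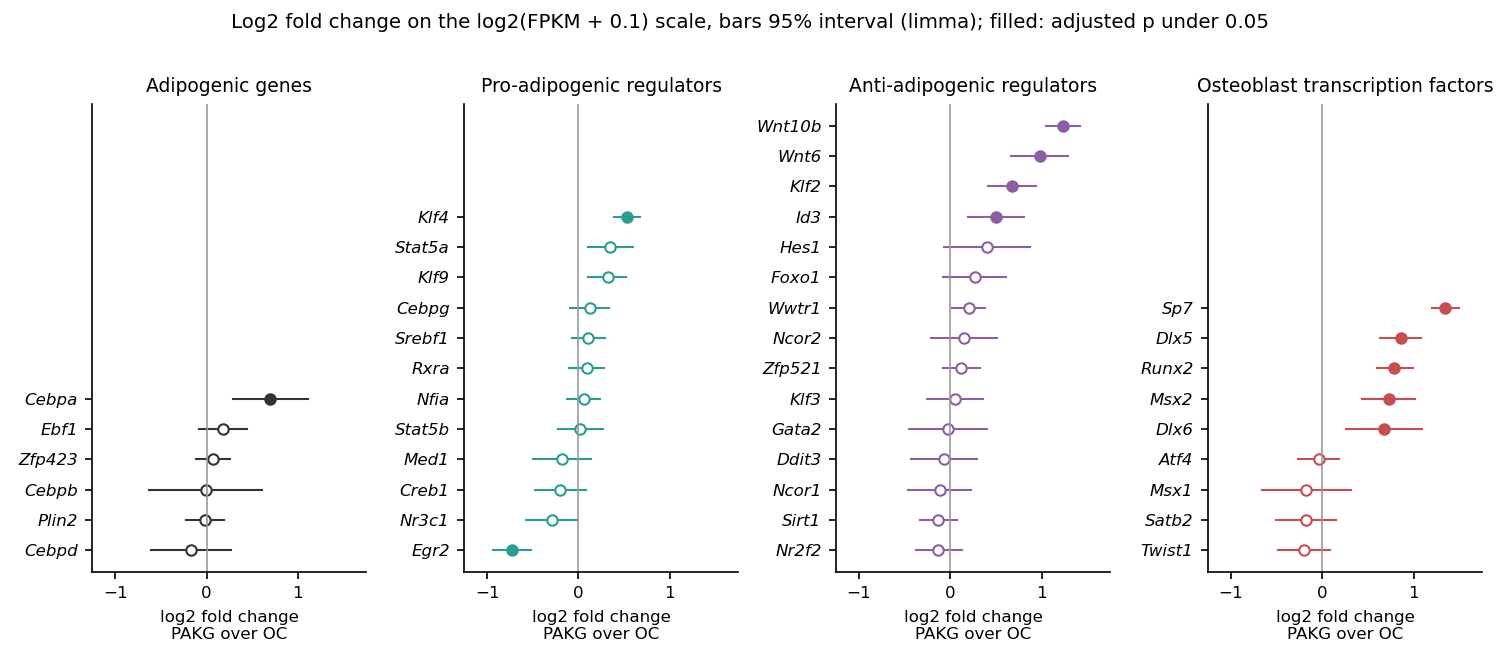
Log2 fold change of PAKG over OC (x axis) with its 95% interval from limma for the tested genes of 4 lists, filled where the adjusted p was under 0.05. Cebpa is the filled member among 6, Klf4 and Egr2 are filled on opposite sides of 0, and the filled points of the anti-adipogenic list (4 of 15) and of the osteoblast factors (5 of 9) all lie above 0. Of all tested genes, 5.97% were called higher and 8.73% lower.

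The genes around the 3 lipid members gave few calls. Of 15 further genes of lipid droplets and lipolysis, beside Plin2, 10 were tested and 0 were called by limma, with 1, Hilpda, at an unadjusted p under 0.05. The list's 2 highest genes, Aup1 (31.3 ± 3.45 and 33.9 ± 4.62 FPKM in OC and PAKG) and Rab18 (17.9 ± 0.425 and 16.4 ± 0.424 FPKM), had log2 fold changes of 0.11 and -0.12. Hilpda, an inhibitor of triglyceride lipase, had a log2 fold change of 0.37 and was called with the replicate block (adjusted p = 0.0131), without PAKG replicate 2 (0.0267) and after rescaling to a common total (0.0329). In the lipoprotein lipase system, Lmf1, which matures the enzyme in the endoplasmic reticulum, rose from 2.41 ± 0.172 to 3.33 ± 0.166 FPKM (adjusted p = 0.0198, log2 fold change 0.45). Lpl itself was at 0 in every library of both groups except OC replicate 3. Furin, a protease that cleaves Lpl and many other proteins, rose from 6.70 ± 0.608 to 8.79 ± 0.961 FPKM (0.38, adjusted p = 0.0498). These were 2 of the 6 genes tested in that system, and neither was called without PAKG replicate 1 (Lmf1 adjusted p = 0.0728, Furin 0.0534), PAKG replicate 3 (0.0946 and 0.139) or OC replicate 3 (0.0651 and 0.157). Lmf1 was also not called without OC replicate 2 (0.0511), nor Furin without PAKG replicate 2 (0.0763) or OC replicate 1 (0.147).

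Fabp5, the epidermal fatty acid binding protein, was the relative of Fabp4 that these cells expressed. It was at 46.12, 45.53 and 55.71 FPKM in OC and at 29.72, 26.64 and 30.00 FPKM in PAKG, and it fell by 0.76 on the log2 scale (adjusted p = 0.00251). No other of the 5 measured relatives passed the filter, and Fabp2 (0.44 FPKM) and Fabp6 (0.98 FPKM) were above 0 in PAKG replicate 2 only. Fabp3 was under the filter with all libraries. Without PAKG replicate 2, where it was at an OC level of 0.28 FPKM, it passed the filter through the high PAKG values that remained. It was then called higher (log2 fold change 1.63, limma adjusted p = 0.0360), so this selected call is no support for a rise. Fabp3 also passed the filter without OC replicate 1 or OC replicate 2 and was not called. Fabp3, the heart form, was at 0.10, 0.28 and 0.32 FPKM in OC and at 0.71, 0.28 and 1.09 FPKM in PAKG.

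Among 17 further PPAR and RXR receptors and fatty acid oxidation genes, 13 were tested and 1 was called. Acsl3, an acyl-CoA synthetase of nascent lipid droplets, fell from 37.2 ± 1.20 to 27.7 ± 0.751 FPKM (adjusted p = 0.00475, log2 fold change -0.43). With the replicate block 6 of the 13 were called, 3 in each direction, among them Ppard higher and Pdk4 lower, and the median of the list was -0.06 in both fits. Of the 10 genes listed as C/EBP targets, 3 were tested, all of them Tribbles pseudokinases. Trib2, which binds C/EBPα, and Trib3 were called lower, and Trib1 was not called (limma adjusted p = 0.979). Trib2 fell from 18.74 to 19.18 FPKM in OC to between 11.60 and 12.26 FPKM in PAKG (adjusted p = 0.000839, log2 fold change -0.66) and Trib3 from 2.26 ± 0.420 to 1.42 ± 0.240 FPKM (-0.63, adjusted p = 0.0472), the latter call ending without PAKG replicate 2 (0.0718), PAKG replicate 3 (0.159) or OC replicate 1, 2 or 3 (0.135, 0.0854 and 0.0735). The secreted targets Lcn2, Hp, Saa3, C3, Il6 and Orm1 were all under the filter, so the calls of this list describe Tribbles genes only.

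Glucocorticoid-inducible genes, which respond to the hormone used to start adipogenesis in culture, moved in both directions, 1 higher and 2 lower of 8 tested. Tsc22d3, which encodes GILZ, rose from 8.03 ± 0.118 to 11.6 ± 0.865 FPKM (adjusted p = 0.00487, log2 fold change 0.52). Errfi1 fell from 6.03 ± 0.299 to 4.11 ± 0.214 FPKM (-0.54, adjusted p = 0.00491), and Mt2, a metallothionein, fell from 20.4 ± 2.15 to 15.6 ± 0.903 FPKM (-0.38, adjusted p = 0.0321). The call of Mt2 was kept, among the libraries left out, without OC replicate 2 alone, with adjusted p of 0.0525 to 0.105 without any other. Of 7 tested stromal progenitor markers, Cd34, a surface marker of adipose progenitors, fell from 18.9 ± 1.11 to 12.6 ± 0.182 FPKM (adjusted p = 0.00190, log2 fold change -0.58), and with the replicate block Cxcl12 was called higher in addition, 2 of 7.

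The libraries carried the identity that the labels give. Summed over 12 osteoblast markers, the level was 5907.07 to 6946.57 FPKM in OC and 8631.04 to 9251.89 FPKM in PAKG, most of it Col1a1, Col1a2 and Sparc. Phex (0.147 ± 0.0306 FPKM in OC and 0.427 ± 0.0379 in PAKG) and Dmp1 (0.253 ± 0.166 and 0.237 ± 0.0208) were under the filter. Of the 10 markers tested, 8 were called higher and 1, Spp1, lower. Sp7 rose from 34.1 ± 1.05 to 87.2 ± 3.41 FPKM, Alpl from 2.23 ± 0.140 to 6.99 ± 0.664, Col1a1 from 3101 ± 380 to 4430 ± 231, Ibsp from 89.9 ± 3.03 to 126 ± 3.78 and Bglap from 0.853 ± 0.176 to 19.3 ± 1.63 FPKM. Bglap2, the neighbouring osteocalcin gene, rose from 1.76 ± 0.422 to 28.4 ± 2.83 FPKM (adjusted p = 4.26e-05, log2 fold change 3.96), and reads of the near-identical Bglap and Bglap2 may be split between them. Of 9 tested osteoblast lineage factors, Sp7, Runx2, Dlx5, Msx2 and Dlx6 were called higher, and with the replicate block Twist1 was also called, lower (log2 fold change -0.20, adjusted p = 0.0281). The calls of Dlx6 (adjusted p up to 0.123) and Col1a1 (up to 0.117) ended without PAKG replicate 1 or 3 or OC replicate 1 or 3, and that of Spp1 (up to 0.0827) without PAKG replicate 3 or OC replicate 1 or 3. Of markers of other cell types, Ptprc was at no more than 0.01, Cdh5 at no more than 0.01 and Pecam1 at no more than 0.03 FPKM. Summed over the 6 of 10 macrophage markers that had a row, the level was 13.10 to 17.36 FPKM in OC and 19.91 to 22.09 FPKM in PAKG, most of it Lyz2, and the groups did not overlap. Cd14 was at 3.58 to 5.28 FPKM in OC and 3.91 to 4.69 FPKM in PAKG, Cd68 at 0.52 to 0.63 and 0.34 to 0.69 FPKM, and neither was called (adjusted p = 0.844 and 0.841). Csf1r, under the filter, was at 0.06 to 0.12 FPKM in OC and 0.22 to 0.29 FPKM in PAKG, without overlap. Among all single genes over the filter, 13.7% were likewise higher in PAKG without overlap. Lyz2 was called higher (10.3 ± 1.60 and 16.1 ± 0.866 FPKM, adjusted p = 0.0120, and 0.0563 without PAKG replicate 3).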

How the data were processed

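Poly(A) RNA of 3 PAKG and 3 OC samples of MC3T3-E1 cells was measured. The deposited values are FPKM with 2 decimals, 1 table for each library. In their processing notes the authors name cutadapt, HISAT2 and StringTie with the build GRCm38, and versions and annotation are not stated in what was read here. FPKM are not counts, so the DESeq2 test of the study was not repeated. The depth is an estimate from the low values of genes of 200 to 500 nt: 1 fragment on 1 kb was worth 0.0238 to 0.0312 FPKM in these libraries, so precision is lowest for genes near 0.

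The 12590 genes averaging 0.5 FPKM or more were fitted in limma 3.58.1 (R 4.3.3; lmFit, eBayes with trend) on log2(FPKM + 0.1), 2-sided, with Benjamini-Hochberg adjustment over all of them and no block. The limma fit alone was tried on simulated data with independent noise for each gene and library. That setting leaves out deviations that genes share within a library or replicate number. Tables, promoter searches and figures were made in Python 3.11.15. Coordinates are from GENCODE M21 on GRCm38.

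The 10 members, the 14 other gene lists, the tests and the motifs were chosen with earlier results of these data known. Named genes are the members, in each list up to 4 called genes with the smallest adjusted p (or the 2 with the highest mean if there are none), the defining cell type markers, and the 3 genes most like the member with the smallest adjusted p. Genes named beyond this rule, those that a block or a left-out library adds among them, were chosen after their values were seen. Other listed genes are given by counts only, and 1 gene is not reported here.

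Both groups carry replicate numbers 1 to 3. Deviations from the group means correlated at 0.240, 0.43 and 0.192 in samples of the same number, above 0.1 in every pair, and at -0.312 to 0.138 in other pairs. The deviations within a group cancel out, so positive values in some pairs force lower ones in others. OC replicate 1 with PAKG replicate 3, at 0.138, was also above 0.1. The numbers were taken as pairs for the block, but a pairing is not established, and no source read here says what the number marks. The alternatives were pseudocounts of 1 and 0.01, no filter or one at 1 FPKM, rescaling to a common total, median-ratio scaling, no trend, the block, and each library left out.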

Additional observations from a re-analysis of the deposited data

How the results depend on the processing

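Cebpa was higher with PAKG MPs in every alternative fit (log2 fold change 0.51 to 0.81, adjusted p 0.00448 to 0.131), but the count of members called higher was 0 with no filter and with a fold change of at least 2 required, and 0 to 1 when single libraries were left out. Over all genes, leaving out a library gave 331 to 987 calls higher and 500 to 1240 lower, and requiring a 2-fold change left 109 and 73. The replicate block, with the numbers taken as pairs, gave 1554 higher and 2157 lower. It raised the calls among pro-adipogenic regulators from 2 to 6, PPAR and oxidation genes from 1 to 6 and mature adipocyte markers from 1 to 3. Calls rose from 0 to 1 for lipid droplet genes, from 1 to 2 for stromal markers and from 4 to 5 for anti-adipogenic regulators (Wwtr1, higher). They rose from 3 to 4 for glucocorticoid-inducible genes (Fkbp5, lower) and from 5 to 6 for osteoblast factors (Twist1, lower). Osteoblast markers went from 9 to 10 (Col1a2, higher). The block changed no call of a member. Rescaling to a common total turned the split of all calls from 751 higher and 1099 lower to 874 and 764, gave 1 lipid droplet call, and left 1 call each among lipoprotein lipase and C/EBP target genes. Lipoprotein lipase genes had 1 call with a pseudocount of 1, with no filter and with no trend, and C/EBP targets had 1 with no filter, with median-ratio scaling and with no trend. Over single libraries left out, calls ranged from 1 to 2 for mature adipocyte markers, 0 to 1 for lipid droplet genes, 0 to 1 for the lipoprotein lipase system, 1 to 2 for fatty acid binding proteins, 1 to 2 for PPAR and oxidation genes, 1 to 2 for C/EBP targets and 0 to 1 for macrophage markers. The sign of Cebpb (main log2 fold change -0.01) turned to 0.03 on rescaling, 0.01 with median-ratio scaling, and 0.15, 0.14, 0.10 and 0.02 without PAKG replicates 1 and 2 or OC replicates 1 and 2 (-0.33 to 0.15 over all libraries left out). Cebpd turned to 0.04 without PAKG replicate 2 (-0.31 to 0.04), and Plin2 to 0.03 on rescaling, 0.01 with median-ratio scaling, 0.04 without PAKG replicate 2 and 0.03 without OC replicate 1 (-0.08 to 0.04). The cause of these changes was not tested. The values of Pparg, Klf15, Fabp4 and Lpl are limited by depth, since most are within a few fragments of 0.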

Other observations

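OC replicate 3, where Fabp4, Lpl and the adipocyte markers stood out, also held RNA of genes from other tissues, in a comparison chosen after seeing the data. Genes were counted that were above 0.3 FPKM in 1 library and below 0.05 FPKM in the other 5. There were 13 such genes in OC replicate 3, Fabp4 among them, 9 and 7 in OC replicates 1 and 2, and 1, 21 and 6 in PAKG replicates 1, 2 and 3. In OC replicate 3 they included genes of sperm chromatin, with Tnp2 at 1.09, Prm2 at 0.63 and Prm1 at 0.47 FPKM, each at 0 in the PAKG libraries and at no more than 0.04 in OC replicates 1 and 2.

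PAKG replicate 2, the library with the most of these genes, held genes of the small intestine in addition to Fabp6 (0.98 FPKM), namely the Paneth cell defensins Defa22 (0.80 FPKM), Defa31 (0.65 FPKM) and Defa2 (0.57 FPKM) and the antimicrobial lectin Reg3b (0.67 FPKM), all listed at 0 in the other 5 libraries.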
